A study of Homo sapiens with 24 samples.

Results

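The comparison set human colorectal cancer cells that carry a degron tag on UHRF1 against cells without that tag, before any auxin was given. Of the 24 RNA-seq libraries of the series, the 12 taken at day 0 entered it, 6 with the UHRF1 tag and 6 without, and whether DNMT1 was tagged was a term of the model. The study fused an auxin-inducible degron (AID) to the endogenous UHRF1, to DNMT1 or to both in HCT116 cells, so that auxin removes the tagged protein. It compared polyadenylated RNA before auxin and after 4 days of it. The question here is what the UHRF1 tag, and the making of the lines that carry it, came with while the protein was still present.

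Each of the 4 lines gave 3 libraries. WT is the parent line, which like all lines carries a doxycycline-inducible OsTIR1, the plant receptor that auxin needs to mark a protein for destruction. UHRF1-AID has the degron and the green protein mClover at the C-terminus of UHRF1. DNMT1-AID has the degron and the red protein mRuby2 at the N-terminus of DNMT1. UHRF1-AID/DNMT1-AID has both and, in the study's drawing of how the lines were generated, was made from UHRF1-AID cells. By the study's account the replicates of each tagged line are 3 independent clones, grown from picked colonies. Drug selection and editing came with a tag in all of them. DNMT1-AID, which lacks the UHRF1 tag, went through them too, but for DNMT1. The part of the editing and selection for UHRF1 cannot be told apart from that of its tag. From which UHRF1-AID clone or clones the double line was made is not given, so its libraries may share a founder. Whether the day 0 cells had received doxycycline or auxinole, which blocks OsTIR1, is not given either.

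UHRF1 and DNMT1 together copy CpG methylation onto newly replicated DNA. UHRF1 binds hemimethylated CpG sites behind the replication fork and ubiquitinates histone H3 and PAF15, marks that DNMT1 reads before it methylates the new strand. Loss of this pair lets methylation dilute with each division, and in colorectal cancer cells it reactivates silenced promoters, germline genes and transposons.

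Depth, as counts assigned to genes, ran from 18630957 to 25073821 over the 12 libraries (median 20873726). By line, the medians were 19678792 for WT, 19228087 for UHRF1-AID, 21137835 for DNMT1-AID and 23912638 for the double line. Epithelial genes marked the cells as labelled in part. Of 10 epithelial markers 7 were tested, and KRT8, a keratin of simple epithelia, was the most abundant at a mean of 2266 CPM (read counts scaled to a common library total over the 12 libraries), between 1615 and 3144. The summed level of the epithelial markers was between 4219 and 7142 CPM with the tag (median 5829) and between 4960 and 6306 without (median 5575). CDX1, VIL1 and CEACAM5, markers of differentiated colon, had 3 counts or fewer in every library. Of 6 fibroblast markers 4 were at that floor, as were 4 of 6 immune markers and 1 of 4 endothelial markers. COL1A1, the most abundant fibroblast marker, had a mean of 4.27 CPM, and the summed fibroblast level was between 4.59 and 5.98 CPM with the tag and between 1.54 and 7.12 without.

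Libraries also differed in ways that their lines do not account for. In each library, the deviation of every gene from its mean over the 12 libraries was set against the gene's exon length and GC content. Spearman's rho across genes, which are not independent of one another, was -0.30 with length in WT replicate 3, against 0.30 and 0.28 in WT replicates 1 and 2. DNMT1-AID replicates 1 and 2 had -0.30 and -0.26 and replicate 3 had 0.09. In UHRF1-AID rho was 0.31, 0.16 and 0.28, and in UHRF1-AID/DNMT1-AID it was between -0.08 and -0.01. WT replicate 3 thus had relatively fewer counts on long genes than its own line, and its deviations were most like those of DNMT1-AID replicate 2 (r 0.66). DNMT1-AID replicate 3 was most like UHRF1-AID/DNMT1-AID replicate 2 (r 0.20). No UHRF1-AID library was most like its own line, since replicate 1 was nearest to WT replicate 2 (r 0.32), replicate 2 to UHRF1-AID/DNMT1-AID replicate 1 (r 0.30) and replicate 3 to WT replicate 1 (r 0.29). Across genes, the tag difference itself went with length (rho 0.18) and GC content (rho 0.26). Results are therefore also given with offsets for length and GC content, without WT replicate 3 and DNMT1-AID replicates 1 and 2, called the 3 length-trend libraries from here on, and without DNMT1-AID replicate 3, whose removal changed the number of calls most. The offsets and the libraries left out were chosen with values of these data known. Leaving out the 3 length-trend libraries keeps 3 untagged ones, with DNMT1-AID replicate 3 as the 1 DNMT1-AID library. In genes such as PLK2, AXIN2 and BMP4 that replicate lay nearer to the tagged libraries than replicates 1 and 2 did, so a difference closer to 0 in this setting cannot be assigned to the trend.

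**Figure D1:**
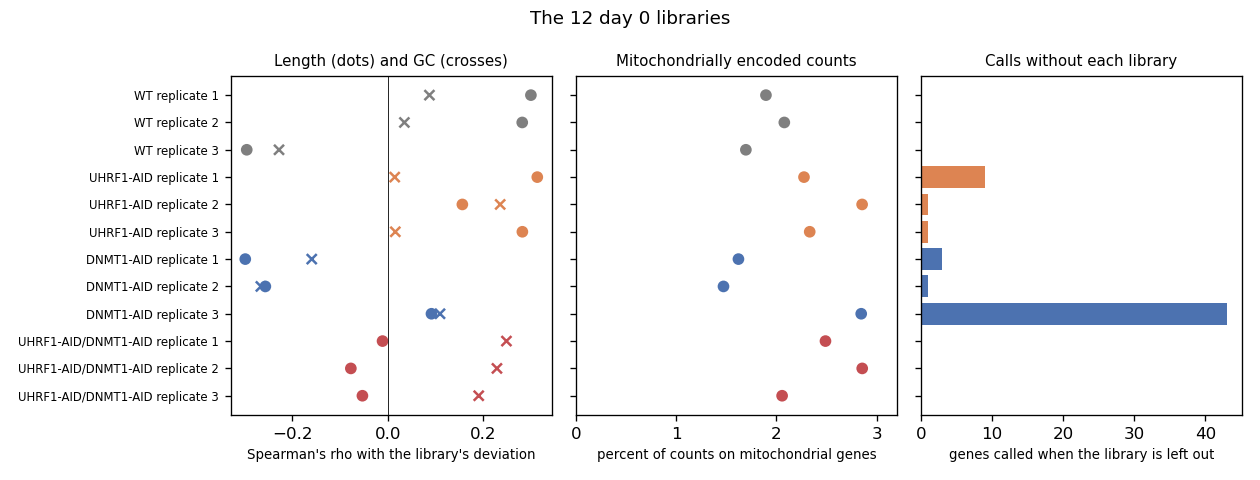
Properties of the 12 day 0 libraries, coloured by line. Left, Spearman's rho across genes between the library's deviation from the mean and exon length (dots) or GC content (crosses); middle, percent of counts on mitochondrially encoded genes; right, the number of genes called by edgeR when that library is left out, 43 for DNMT1-AID replicate 3.

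The transcript of the tagged gene was higher in most libraries with the tag. UHRF1 (ENSG00000276043, chromosome 19, 4903080 to 4962154, hg38) was at 89.9, 82.0 and 48.3 CPM in the WT replicates and at 167, 149 and 192 CPM in UHRF1-AID. It was at 49.5, 45.8 and 107 CPM in DNMT1-AID, against 78.3, 171 and 191 CPM in UHRF1-AID/DNMT1-AID. Of the 6 tagged libraries only UHRF1-AID/DNMT1-AID replicate 1 lay inside the range of the untagged ones, which was between 45.8 and 107 with a median of 65.8. The line means were 73.4 ± 22.1 CPM in WT and 169 ± 21.7 CPM in UHRF1-AID (SD, n = 3), and 67.3 ± 34.1 and 147 ± 60.2 CPM in the lines with the DNMT1 tag, without and with the UHRF1 tag. The log2 difference was 1.17 (standard error 0.28), with an edgeR p of 0.00148 and an adjusted p of 0.153. DESeq2 gave an adjusted p of 9.50e-04. Without the 3 length-trend libraries it was 0.77 with an adjusted p of 0.549, and without DNMT1-AID replicate 3 it was 1.39 with an adjusted p of 0.0448.

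DNMT1 (ENSG00000130816, chromosome 19, 10133345 to 10231286) did not separate by the UHRF1 tag. It was at 173, 181 and 73.6 CPM in WT and 173, 177 and 190.3 CPM in UHRF1-AID. DNMT1-AID had 27.7, 29.7 and 73.3 CPM, against 77.4, 77.8 and 39.7 CPM for UHRF1-AID/DNMT1-AID. The lines with the DNMT1 tag were thus low, and WT replicate 3 lay with them. The log2 difference for the UHRF1 tag was 0.46 (standard error 0.30) with an adjusted p of 0.391, and it was -0.049 without the 3 length-trend libraries. Of the 12 tested genes of maintenance methylation, 2 were higher (16.7%, against 9.06% of all genes; UHRF1 and ZBTB24, a factor mutated in the ICF syndrome, at 0.30) and 1 was lower (8.33%, against 9.92%) at an unadjusted p under 0.05 (UHRF2, the paralogue of UHRF1, at -0.29), with a median of 0.14 that was 0.03 without the 3 length-trend libraries. Of the maintenance genes, 33.3% were higher with offsets for length and GC content, against 7.89% of all genes. Without DNMT1-AID replicate 3 it was 50%, against 16.5%, and without the 3 length-trend libraries 8.33%, against 4.04%. None of the 6 tested genes of de novo methylation and the TET enzymes had an unadjusted p under 0.05 with all 12 libraries. Among 10 genes listed as methyl-CpG readers 2 were higher (20.0%) and 0 were lower, with a median of 0.12 that was -0.06 without the 3 length-trend libraries. In that setting 0 were higher and 0 lower, and with offsets for length and GC content 0 were higher and 1 was lower (10%, against 13.6% of all genes). Leaving out DNMT1-AID replicate 3 gave 40% higher, against 16.5%.

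**Figure D2:**
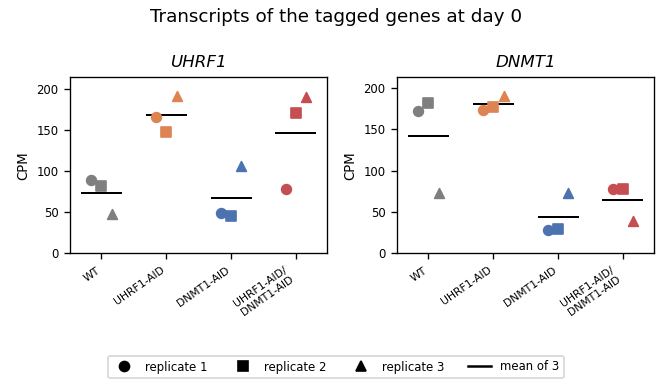
Level of the tagged genes UHRF1 and DNMT1 in CPM in each of the 12 day 0 libraries, by line, with the mean of the 3 replicates as a bar. UHRF1 was higher in both lines with its tag, except in UHRF1-AID/DNMT1-AID replicate 1 (78.3 CPM), while DNMT1 was low in both lines with the DNMT1 tag and in WT replicate 3.

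Across the 14472 genes tested, most differences were small. With edgeR on all 12 libraries, 0 genes (0%) differed by more than 1 in log2 with an adjusted p under 0.05, and the smallest adjusted p was 0.0510. At an unadjusted p under 0.05 there were 2747 genes, 1311 higher with the tag (9.06%) and 1436 lower (9.92%). DESeq2 called 45 of 14228 genes with an adjusted p, 25 higher (0.176%) and 20 lower (0.141%). The median absolute log2 difference was 0.16 and 95% of genes were under 0.66, while 176 genes exceeded 1. In 66 genes (0.456%) all 6 tagged libraries were above all 6 untagged ones, and in 56 (0.387%) all were below. The count of calls turned on DNMT1-AID replicate 3, whose removal gave 23 higher and 20 lower genes by edgeR. Of those 43, 29 were among the 45 of DESeq2, which is 67.4% of the first set and 64.4% of the second. Removing UHRF1-AID replicate 1 gave 3 higher and 6 lower genes, removing DNMT1-AID replicate 1 gave 0 higher and 3 lower, and removing UHRF1-AID replicate 2, UHRF1-AID replicate 3 or DNMT1-AID replicate 2 gave 1 lower gene each. ENSG00000256663, which has no gene symbol, was higher with an edgeR p of 5.02e-05 and no overlap between the groups, and is left out below. The 10 lower and 10 higher genes of smallest p among those with a symbol are described next. None of them was called by edgeR with all 12 libraries. They were picked by their p in these same libraries, so refits that share the libraries do not test them independently. All 20 kept their direction without the 3 length-trend libraries, where 3 had an adjusted p under 0.05, with offsets for length and GC content, where 4 did (ACSL5, MBNL3, CD55 and CASP10, smallest 0.0265), with a replicate block, where 1 did, and without DNMT1-AID replicate 3, where all 20 did.

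The clearest difference was in ACSL5, an acyl-CoA synthetase of the intestine that activates long-chain fatty acids (ENSG00000197142, chromosome 10, 112374018 to 112428380). It was at 144, 159 and 157 CPM in WT and at 49.4, 80.5 and 48.9 CPM in UHRF1-AID. DNMT1-AID had 129.9, 183 and 73.5 CPM, against 34.3, 33.5 and 31.6 CPM for UHRF1-AID/DNMT1-AID. Both tagged lines were low, and the groups met only where UHRF1-AID replicate 2 lay above DNMT1-AID replicate 3. The log2 difference was -1.66 (standard error 0.22), the adjusted p 0.0510 by edgeR and 1.42e-12 by DESeq2. It was -1.27 with an adjusted p of 0.0747 without the 3 length-trend libraries. ZDHHC6, a palmitoyltransferase gene on the other strand (ENSG00000023041, chromosome 10, 112424428 to 112446917), overlaps the end of ACSL5, and the deposited counts do not say which strand was counted. ZDHHC6 was between 65.1 and 84.1 with a median of 76.5 CPM with the tag and between 84.8 and 121 with a median of 107 without, so the groups did not overlap, and the log2 difference was -0.48 (standard error 0.09) with an adjusted p of 0.0927, and -0.30 without the 3 length-trend libraries.

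MBNL3, a muscleblind splicing regulator on the X chromosome (ENSG00000076770, chromosome X, 132369317 to 132489968), had few reads but differed in both backgrounds. It was at 4.08, 4.90 and 5.50 CPM in WT against 1.75, 0.928 and 1.93 CPM in UHRF1-AID. In DNMT1-AID it was at 1.74, 3.96 and 5.61 CPM against 0.394, 0.917 and 0.716 CPM in UHRF1-AID/DNMT1-AID. DNMT1-AID replicate 1 lay among the tagged libraries. The log2 difference was -2.01 (standard error 0.31), with an adjusted p of 0.0510 by edgeR and 3.28e-07 by DESeq2, and it was -2.12 with an adjusted p of 0.0259 without the 3 length-trend libraries.

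CD55, the decay-accelerating factor that shields cells from complement (ENSG00000196352, chromosome 1, 207321376 to 207386804), was at 78.3, 90.9 and 76.8 CPM in WT and 62.3, 51.7 and 59.3 CPM in UHRF1-AID. It was at 80.8, 77.5 and 66.5 CPM in DNMT1-AID but 57.2, 45.8 and 46.5 CPM with both tags. Every tagged library was below every untagged one, by a log2 difference of -0.55 (standard error 0.08) with an adjusted p of 0.0510, and -0.50 with an adjusted p of 0.0392 without the 3 length-trend libraries. CASP10, an initiator caspase of death receptors (ENSG00000003400, chromosome 2, 201182881 to 201229406), was between 1.53 and 3.32 with a median of 2.67 CPM with the tag and between 4.51 and 6.61 with a median of 5.42 without, again with no overlap. Its log2 difference was -1.09 (standard error 0.17) with an adjusted p of 0.0510. LCP1, the actin bundler L-plastin (ENSG00000136167, chromosome 13, 46125920 to 46211871), was between 0.200 and 0.437 with a median of 0.285 CPM with the tag and between 0.745 and 1.93 with a median of 1.23 without, a log2 difference of -2.11 (standard error 0.34) with an adjusted p of 0.0550. PLAUR, the urokinase receptor, SDC4, a syndecan, TRNP1 and TMEM87B completed the 10, with log2 differences of -0.62, -0.62, -0.76 and -0.41 and adjusted p between 0.0708 and 0.0927. SDC4 was at -0.40 without the 3 length-trend libraries. SYK, a tyrosine kinase, was between 0.1002 and 0.750 with a median of 0.454 CPM with the tag and between 0.348 and 4.15 with a median of 2.93 without, and only DNMT1-AID replicate 1 (0.348 CPM) of the untagged libraries lay among the tagged ones. Its log2 difference was -2.59 (standard error 0.50) with an adjusted p of 0.0958, and -2.81 with an adjusted p of 0.00109 without the 3 length-trend libraries, which include that one.

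Among the genes higher with the tag, GGT5, a gamma-glutamyl transferase that cleaves leukotriene C4 (ENSG00000099998, chromosome 22, 24219654 to 24245142), had the smallest p. It was at 0.442, 0.671 and 0.377 CPM in WT and 0.902, 1.24 and 1.45 CPM in UHRF1-AID. DNMT1-AID had 0.546, 1.01 and 0.575 CPM, against 5.12, 2.42 and 6.28 CPM for UHRF1-AID/DNMT1-AID. The high values were those of UHRF1-AID/DNMT1-AID, and DNMT1-AID replicate 2 overlapped UHRF1-AID. The log2 difference was 2.09 (standard error 0.34) with an adjusted p of 0.0630, and 1.92 with an adjusted p of 0.264 without the 3 length-trend libraries. BDNF, a neurotrophin, was at 42.9, 42.0 and 42.8 CPM in WT against 78.2, 69.7 and 72.5 CPM in UHRF1-AID. In the lines with the DNMT1 tag it was at 86.9, 61.6 and 102 CPM without and 98.3, 155 and 120.1 CPM with the UHRF1 tag, so the DNMT1-AID values reached into the tagged range. Its log2 difference was 0.68 (standard error 0.12) with an adjusted p of 0.0927.

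AXIN2, a scaffold of the beta-catenin destruction complex and itself a WNT target (ENSG00000168646, chromosome 17, 65528563 to 65561647), was at 2.46, 2.84 and 1.67 CPM in WT and 3.11, 8.05 and 6.29 CPM in UHRF1-AID. It was at 1.79, 2.08 and 4.99 CPM in DNMT1-AID but 7.48, 9.92 and 14.03 CPM with both tags. DNMT1-AID replicate 3 was above UHRF1-AID replicate 1, and the other untagged libraries were below all tagged ones. The log2 difference was 1.58 (standard error 0.30), with an adjusted p of 0.0958 by edgeR and 1.03e-04 by DESeq2, 1.11 without the 3 length-trend libraries and 1.81 without DNMT1-AID replicate 3. In GNE, the first enzyme of sialic acid synthesis, GFPT2, which feeds the hexosamine pathway, and GPER1, a membrane oestrogen receptor, the groups did not overlap. GNE was between 27.5 and 35.9 with a median of 31.5 CPM with the tag and between 22.7 and 25.6 with a median of 23.4 without, a log2 difference of 0.41 (standard error 0.08). GPER1 was between 2.91 and 5.06 with a median of 3.40 CPM with the tag and between 1.63 and 2.36 with a median of 2.05 without, a log2 difference of 0.86 (standard error 0.17), and GFPT2 differed by 0.44. PLK2, MSLN and CA12 had log2 differences of 0.62, 0.60 and 0.79, with overlap between the groups. The adjusted p of these 6 genes were between 0.0927 and 0.0958.

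**Figure D3:**
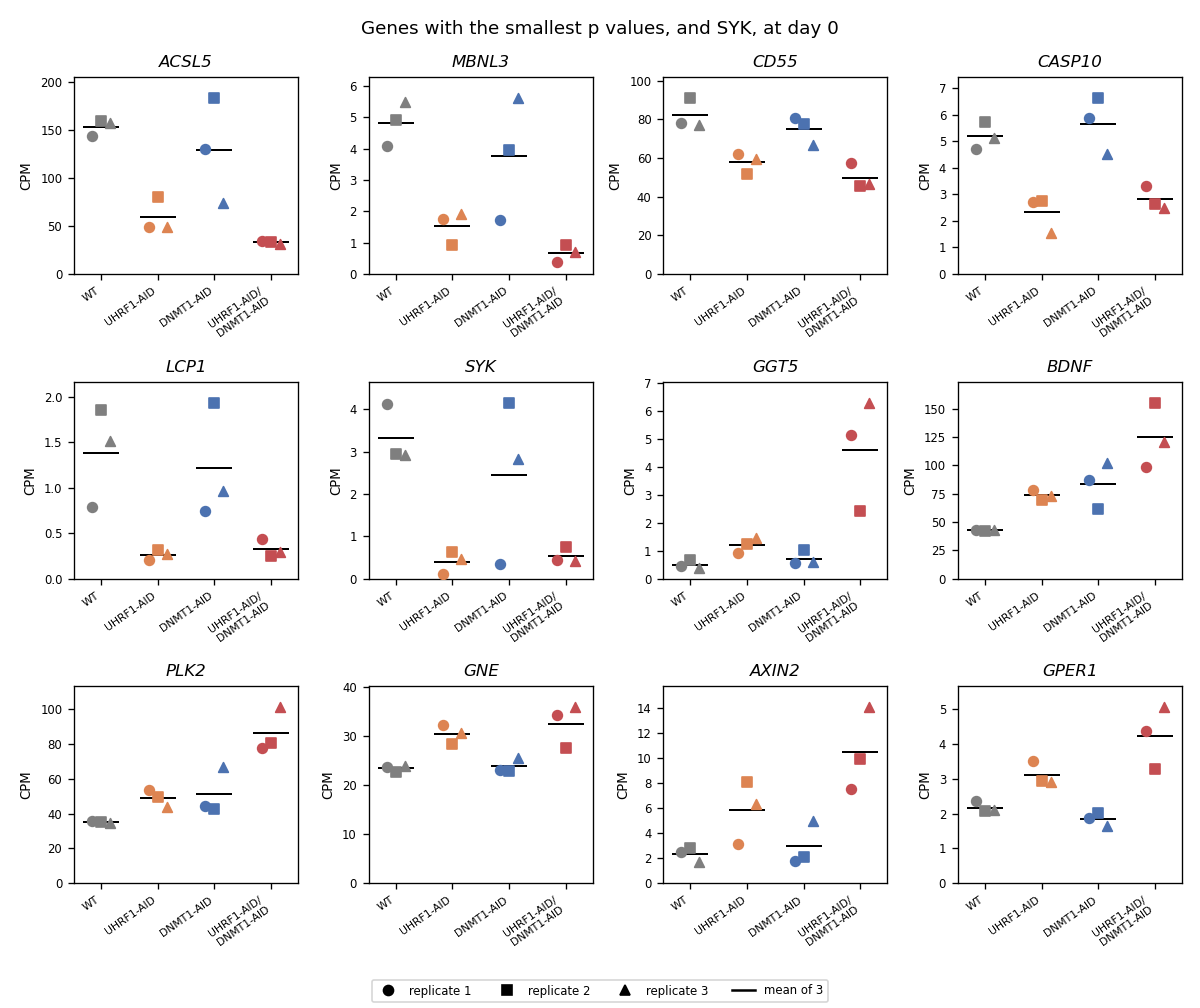
Level in CPM of 12 genes in each of the 12 day 0 libraries, by line, with the mean of the 3 replicates as a bar. ACSL5, MBNL3, CD55, CASP10, LCP1 and SYK were lower with the UHRF1 tag, while GGT5, BDNF, PLK2, GNE, AXIN2 and GPER1 were higher.

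Because UHRF1 acts on CpG sites, the CG content of these genes' promoters is shown, although DNA methylation was not analysed here. The windows are 300 bases around a RefSeq start (GRCh38.p14), written 5′ to 3′ along the gene, and CG, which reads the same on both strands, is in capitals. Of 35116 promoters of 27305 genes, 96.0% hold at least 1 CG, with a median of 14 and quartiles of 4 and 28. Of the 10 leading lower genes 9 matched, and their most CG-rich starts had a median of 19 CG, between 2 and 33. Of the 10 leading higher genes 6 matched, with a median of 27, between 18 and 40. The median over all 27305 genes was 16. These include genes that were not tested, so 16 is not a like baseline for the leading genes. ACSL5 and MBNL3 are shown as the clearest lower genes, and AREG and EREG as a pair of neighbouring EGFR ligands that were lower and are described further on. The ACSL5 starts lie at chr10:112375018-112375317 and chr10:112375955-112376254 on the plus strand with 4 and 5 CG, and 29.6% and 33.7% of all promoters hold as few. Of 4 MBNL3 starts in the RefSeq table, the one nearest the gene's 5′ end in the annotation is shown, at chrX:132489986-132490285 on the minus strand, with 16 CG (54.0%), and the most CG-rich of the 4 has 17. The AREG start at chr4:74444886-74445185 has 27 (73.8%) and the EREG start at chr4:74364895-74365194 has 12 (48.3%), both on the plus strand.
ACSL5 start 1: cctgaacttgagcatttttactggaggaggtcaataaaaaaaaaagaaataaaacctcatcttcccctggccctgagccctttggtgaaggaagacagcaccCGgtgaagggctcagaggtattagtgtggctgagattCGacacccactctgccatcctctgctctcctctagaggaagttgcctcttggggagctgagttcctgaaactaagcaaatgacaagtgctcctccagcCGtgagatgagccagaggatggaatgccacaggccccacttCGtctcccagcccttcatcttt
ACSL5 start 2: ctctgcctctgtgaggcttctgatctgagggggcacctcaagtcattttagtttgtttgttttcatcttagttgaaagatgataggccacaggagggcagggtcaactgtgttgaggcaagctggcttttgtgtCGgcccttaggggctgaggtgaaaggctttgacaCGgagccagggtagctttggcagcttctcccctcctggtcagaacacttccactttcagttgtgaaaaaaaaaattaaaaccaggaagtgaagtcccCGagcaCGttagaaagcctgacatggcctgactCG
MBNL3: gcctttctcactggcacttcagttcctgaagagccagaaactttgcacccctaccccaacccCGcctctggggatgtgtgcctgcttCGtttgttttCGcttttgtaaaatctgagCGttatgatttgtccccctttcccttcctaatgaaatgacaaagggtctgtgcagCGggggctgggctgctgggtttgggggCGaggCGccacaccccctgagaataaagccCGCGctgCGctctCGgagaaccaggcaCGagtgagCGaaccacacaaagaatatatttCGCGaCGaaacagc
AREG: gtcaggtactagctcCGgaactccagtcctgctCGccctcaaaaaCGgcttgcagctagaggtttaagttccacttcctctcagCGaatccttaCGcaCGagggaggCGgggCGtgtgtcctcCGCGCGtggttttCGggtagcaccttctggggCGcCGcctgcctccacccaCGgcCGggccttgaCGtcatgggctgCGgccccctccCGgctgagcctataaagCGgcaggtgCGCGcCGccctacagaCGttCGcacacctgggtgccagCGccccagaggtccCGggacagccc
EREG: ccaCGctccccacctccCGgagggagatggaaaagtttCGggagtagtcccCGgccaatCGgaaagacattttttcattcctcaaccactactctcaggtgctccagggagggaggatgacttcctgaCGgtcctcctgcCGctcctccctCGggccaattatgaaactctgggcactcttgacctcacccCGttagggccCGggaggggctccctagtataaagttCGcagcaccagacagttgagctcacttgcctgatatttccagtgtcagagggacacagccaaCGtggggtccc
The leading lower genes thus included CG-poor and CG-rich promoters alike, and a CG count is a description that says nothing of methylation.

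The UHRF1 tag was present in a background without and in one with the DNMT1 tag, and these contrasts share no library. UHRF1-AID against WT gave 0 called genes by edgeR (520 at an unadjusted p under 0.05, 3.59%, smallest adjusted p 0.932), and UHRF1-AID/DNMT1-AID against DNMT1-AID also 0 (2199, 15.2%, smallest adjusted p 0.0619). Across the 14472 genes the log2 differences of the contrasts had a Pearson r of 0.44 and a Spearman's rho of 0.54, and 72.4% had the same sign. The lines are not independent, since UHRF1-AID/DNMT1-AID was made from UHRF1-AID cells, and length-trend libraries sit in the untagged arm of both. ACSL5 differed by -1.37 in the first background and by -1.96 in the second, and MBNL3 by -1.64 and -2.47. AREG differed by -1.05 and -1.05, CASP10 by -1.17 and -1.01, and AXIN2 by 1.32 and 1.82. Of these, ACSL5, MBNL3, CASP10 and AXIN2 were chosen by their p over all 12 libraries. That p draws on both contrasts, so their like signs are no separate check. Other genes leaned to 1 background, such as SUSD2 (0.72 and 3.07), KRT23 (0.20 and 1.28), PRF1 (0.02 and 1.29) and SEMA3A (-0.22 and 2.15). For PRF1 and SEMA3A the second value rested largely on 1 library. PRF1 was at 37.3, 23.97 and 138.6 CPM in UHRF1-AID/DNMT1-AID, against 21.7, 30.2 and 29.8 CPM in DNMT1-AID. SEMA3A was at 40.5, 7.38 and 6.83 CPM in UHRF1-AID/DNMT1-AID, against 4.47, 4.88 and 2.97 CPM in DNMT1-AID. The test of the difference between backgrounds called 0 genes with edgeR (358 at an unadjusted p under 0.05, 2.47%, smallest adjusted p 0.999) and 0 with DESeq2 (417, smallest adjusted p 0.0934), so none of these leanings passed it. Without UHRF1-AID replicate 2, edgeR called 3.

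**Figure D4:**
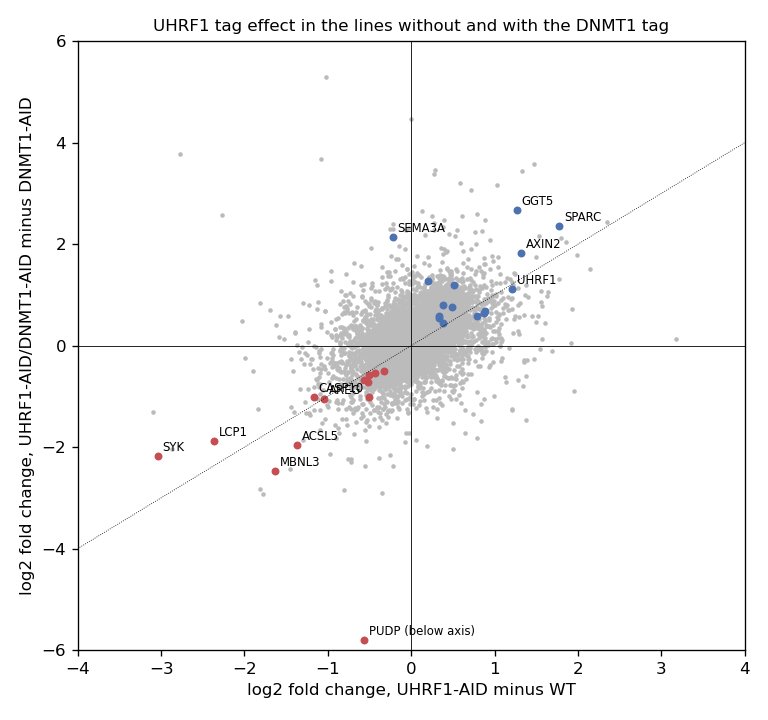
Log2 difference of each of the 14472 genes for UHRF1-AID minus WT (x axis) and UHRF1-AID/DNMT1-AID minus DNMT1-AID (y axis), with named genes in colour, blue where higher and red where lower with the tag, and the line of equal values dotted. ACSL5, AREG and UHRF1 lie near that line, while SEMA3A and PUDP do not.

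PUDP, a pseudouridine phosphatase on the X chromosome (ENSG00000130021, chromosome X, 7048920 to 7148190), had no counts in some libraries. It had 533, 418 and 479 counts in WT and 625, 618 and 576 in DNMT1-AID. In UHRF1-AID it had 475, 0 and 654 counts, and in all 3 UHRF1-AID/DNMT1-AID libraries 0. The gene was thus at 0 in 4 of 6 tagged libraries and in none of the 6 untagged ones, and since the double line came from UHRF1-AID cells these 4 may not be independent in origin. Single libraries on both sides had such low counts. While expressed elsewhere, 4 other genes were at 3 counts or fewer in 1 tagged library and 5 in 1 untagged library. PROM2 and LINC02967 had 0 counts in UHRF1-AID replicate 1, and the neighbouring zinc finger genes ZNF91 and ZNF675 had 0 and 2 in UHRF1-AID replicate 3. MAGEE1 in DNMT1-AID replicate 1, MAP1A in WT replicate 3, PXDN in DNMT1-AID replicate 3, and SPTB and ZNF469 in DNMT1-AID replicate 2 were at that floor on the untagged side. MAP1A, SPTB and ZNF469 were low in all 3 length-trend libraries, so theirs were not gaps of a single library. In WT replicate 3 and DNMT1-AID replicates 1 and 2, MAP1A had 3, 15 and 10 counts, SPTB 13, 9 and 2, and ZNF469 6, 6 and 3. The other libraries had at least 51, 37 and 39 counts of these genes.

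In the gene lists that follow, members are counted as higher or lower at an unadjusted p under 0.05, which 9.06% and 9.92% of all genes reached, and edgeR called none of them with all 12 libraries. Ligands of the EGF receptor, which drives growth of the intestinal epithelium, leaned lower with the tag. Of 14 tested ligands, receptors and regulators, 0 were higher and 6 lower (42.9%), with a median log2 difference of -0.24. The median was -0.19 without the 3 length-trend libraries and -0.27 without DNMT1-AID replicate 3. AREG, amphiregulin (ENSG00000109321, chromosome 4, 74445134 to 74455009), was at 575, 649 and 608 CPM in WT and 347, 289 and 251 CPM in UHRF1-AID. DNMT1-AID had 320.3, 618 and 194 CPM, against 229.8, 150.5 and 169 CPM for UHRF1-AID/DNMT1-AID, so DNMT1-AID replicates 1 and 3 overlapped the tagged range. Its log2 difference was -1.05 (standard error 0.23) with an adjusted p of 0.152 by edgeR and 5.57e-04 by DESeq2, -0.71 without the 3 length-trend libraries and -1.19 with an adjusted p of 0.0293 without DNMT1-AID replicate 3. EREG, epiregulin, the gene beside it, was between 585 and 1384 with a median of 852 CPM with the tag and between 888 and 1729 with a median of 1528 without, a log2 difference of -0.65 (standard error 0.17) with an adjusted p of 0.158, and -0.38 with an adjusted p of 0.624 without the 3 length-trend libraries. HBEGF (-0.65), TGFA (-0.24), the sheddase ADAM17 (-0.25), which releases such ligands, and the feedback inhibitor ERRFI1 (-0.69) were the other 4, and ERRFI1 was at -0.32 with an unadjusted p of 0.205 without the 3 length-trend libraries. Downstream, 23 genes of ERK output had a median of -0.05, with 0 higher and 3 lower (DUSP5 at -0.68, DUSP4 at -0.32 and IER2 at -0.19). DUSP5 was at -0.36 with an unadjusted p of 0.123 without those libraries.

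All 16 tested WNT targets had a log2 difference above 0 by edgeR, but 13 by DESeq2 and 14 with offsets for length and GC content, and 7 without the 3 length-trend libraries. Their median was 0.29, and 5 were higher at an unadjusted p under 0.05 (AXIN2, SP5 at 0.72, BAMBI at 0.68, EPHB2 at 0.41 and NOTUM at 0.23). The median was 0.10 with offsets for length and GC content, where 12.5% were higher, against 7.89% of all genes. Without the 3 length-trend libraries it was -0.02, with 6.25% higher, against 4.04%, and 6.25% lower, against 4.88%. Leaving out DNMT1-AID replicate 3 instead gave 0.41, with 62.5% of the WNT targets higher, against 16.5% of all genes. Of 3 tested WNT antagonists NOTUM alone was higher. WNT3A, a WNT ligand, was between 4.21 and 8.97 with a median of 7.71 CPM with the tag and between 1.54 and 4.56 with a median of 3.34 without, and BMP4, a ligand of the BMP pathway, between 50.2 and 155 with a median of 87.3 CPM against between 28.1 and 84.9 with a median of 33.6. Their log2 differences were 1.13 (standard error 0.29) and 1.09 (standard error 0.26), with adjusted p of 0.158 and 0.153 by edgeR and 0.0121 and 0.00155 by DESeq2. Their edgeR values were 0.63 and 0.76 without the 3 length-trend libraries, with adjusted p of 0.378 and 0.525.

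Genes of the epithelial to mesenchymal transition were also higher in part. Of 17 tested, 7 were higher and 3 lower, with a median of 0.31. Without the 3 length-trend libraries the median was 0.02, with 5.88% higher, against 4.04% of all genes, and 11.8% lower, against 4.88%. With all libraries, the 7 higher ones included the mesenchymal genes SPARC at 2.15 (standard error 0.53), FN1, fibronectin, at 1.21 (standard error 0.35) and VIM, vimentin, at 1.00 (standard error 0.34). They also included the epithelial regulators OVOL2 (0.78) and ESRP2 (0.31). SPARC was between 0.983 and 17.7 with a median of 2.41 CPM with the tag and between 0.295 and 1.98 with a median of 0.803 without. The lower ones were epithelial, CLDN7 at -0.51 (standard error 0.10), ESRP1 at -0.32 and EPCAM at -0.19. With the 3 length-trend libraries left out, FN1 was at 0.60 (unadjusted p 0.0605), VIM at 0.81 (unadjusted p 0.164), SPARC at 2.62 (unadjusted p 0.0429) and CLDN7 at -0.31. Of 9 tested genes of differentiated absorptive and secretory colon cells, 0 were higher and 3 lower, GCNT3, a mucin-type glycosyltransferase, at -1.91 (standard error 0.40), CA2, a carbonic anhydrase, at -0.61 (standard error 0.18) and KLF4 at -0.51. Their median was -0.51, and -0.31 without the 3 length-trend libraries, where CA2 had an unadjusted p of 0.110. Among 16 keratins KRT23 (0.75, unadjusted p 0.118 without those libraries) and KRT17 (2.89) were higher. KRT17 had 2, 3 and 4 counts in UHRF1-AID against 1, 0 and 2 in WT, and 26, 26 and 27 in UHRF1-AID/DNMT1-AID against 0, 0 and 6 in DNMT1-AID, so its higher counts were those of the double line.

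Of 24 genes of acyl-CoA and triglyceride synthesis, the list that holds ACSL5, 2 were higher and 4 lower, with a median of -0.05 that was 0.02 in UHRF1-AID minus WT and 0.00 in UHRF1-AID/DNMT1-AID minus DNMT1-AID. The lower ones were ACSL5, GPAT3, which starts triglyceride synthesis, at -0.98 (standard error 0.22) (-0.60 without the 3 length-trend libraries), ACSL4 at -0.24 and PLIN3 at -0.20. Of 35 genes of cholesterol and fatty acid synthesis 1 was higher and 11 were lower (31.4%), with a median of -0.10. With offsets for length and GC content the median was -0.18, with 40% lower, against 13.6% of all genes. Without the 3 length-trend libraries it was -0.02, with 14.3% lower, against 4.88%. The desaturase SCD differed by -0.28 and ACSS2, which makes acetyl-CoA from acetate, by -0.39. ELOVL6, which elongates fatty acids, was between 48.8 and 54.8 with a median of 51.9 CPM with the tag and between 56.8 and 64.7 with a median of 60.8 without, with no overlap.

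Stress and metabolic lists differed in direction. Of 27 genes of ATF4 and the unfolded protein response 0 were higher and 5 lower, among them TRIB3 (-1.21) and PSAT1 (-0.70), with a median of -0.26 that was -0.06 without the 3 length-trend libraries. Of 35 genes of hypoxia and glycolysis 1 was higher and 9 were lower (25.7%), with a median of -0.13. With offsets for length and GC content the median was -0.19, with 42.9% lower, against 13.6% of all genes. Without the 3 length-trend libraries it was -0.06, with 5.71% lower, against 4.88%. Of 31 p53 targets 3 were higher and 8 lower, with a median of -0.05. CDKN1A, the cell cycle inhibitor p21, differed by -0.30 (standard error 0.08) and GDF15 by -0.40 (standard error 0.11), while PLK2 was higher. Of 8 AHR targets 2 were higher, AHRR at 0.94 and CYP1A1 at 0.45, and 0 were lower, with a median of 0.16. Of 4 metallothioneins 1 was lower, MT1E at -0.25.

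**Figure D5:**
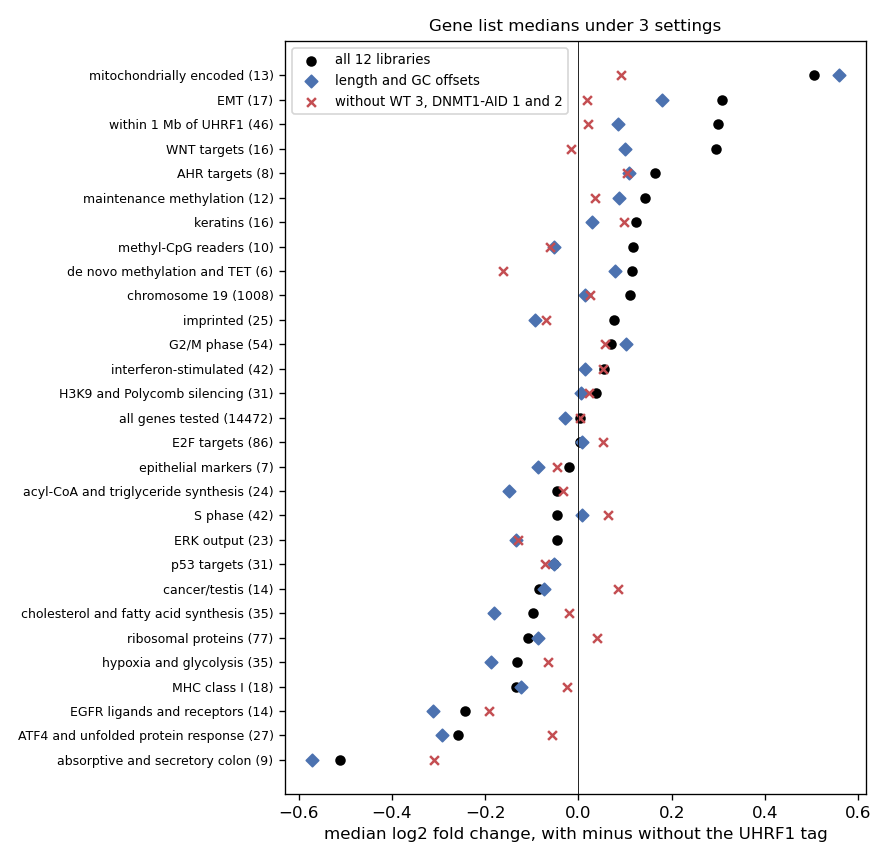
Median log2 difference, with minus without the UHRF1 tag, of the tested members of each gene list (number in brackets), with all 12 libraries (dots), with offsets for length and GC content (diamonds) and without the 3 length-trend libraries (crosses). WNT targets, EMT genes and genes near UHRF1 have medians of 0.29 to 0.31 with all libraries and of -0.02 to 0.02 without those 3, while the EGFR list is at -0.24 and -0.19.

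Of 116 cancer/testis genes 14 passed the filter on low counts, 1 was higher (MAGEA12) and 2 were lower (PIWIL2 and CSAG2), with a median of -0.09. Without the 3 length-trend libraries their median was 0.09, with 0 higher and 0 lower, against 4.04% and 4.88% of all genes. Of 42 interferon-stimulated genes 8 were higher (19%) and 3 lower (7.14%), against 9.06% and 9.92% of all genes, with a median of 0.05, and 3 were higher (7.14%) without the 3 length-trend libraries, against 4.04% of all genes. Of 18 genes of MHC class I presentation 1 was higher (NLRC5, its transactivator, at 0.59) and 3 were lower (HLA-C at -0.23, HLA-E at -0.21 and TAP1 at -0.20). With the 3 length-trend libraries left out, 0 were higher and 1 was lower (5.56%, against 4.88% of all genes). With offsets for length and GC content 0 were higher and 27.8% lower, against 13.6%. Of 25 imprinted genes 2 were higher, the noncoding H19 (2.30, standard error 0.96) and KCNQ1OT1 (1.60, standard error 0.51), and 4 were lower, among them MEST (-0.42). With the 3 length-trend libraries left out, 0 were higher and 1 was lower (4%, against 4.88% of all genes), with a median of -0.07. With offsets for length and GC content 12% were higher and 24% lower, against 7.89% and 13.6%. Of 31 genes of H3K9 and Polycomb silencing 3 were higher (TRIM28, EHMT2 and CBX2) and 1 was lower (PCGF1), with a median of 0.04. DMRT1, a germline gene, had 16, 11 and 20 counts in WT and 2, 10 and 14 in UHRF1-AID, but 0 in all 3 DNMT1-AID libraries against 1, 9 and 6 with both tags, so its side differed between the backgrounds.

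Proliferation genes had medians close to 0. Of 86 E2F targets 4 were higher (4.65%), UHRF1 included, and 3 lower (3.49%), with a median of 0.00. Without the 3 length-trend libraries 12.8% were higher, against 4.04% of all genes, and without DNMT1-AID replicate 3 22.1%, against 16.5%. Of 42 S phase genes 3 were higher and 1 was lower, with a median of -0.05 that was 0.06 without the 3 length-trend libraries. Of 54 G2/M genes 10 were higher (18.5%) and 3 lower (5.56%), with a median of 0.07. With the 3 length-trend libraries left out, 7 were higher (13%, against 4.04% of all genes) and 0 lower (against 4.88%). Without DNMT1-AID replicate 3, 40.7% of the G2/M genes were higher, against 16.5% of all genes, and the median was 0.08. Of 77 ribosomal protein genes 0 were higher and 9 lower, with a median of -0.11 that was 0.04 without the 3 length-trend libraries. All 13 mitochondrially encoded genes were above 0, with a median of 0.51, and MT-ND1, MT-ND2 and MT-CYB were higher at an unadjusted p under 0.05. Their share of counts was 2.27%, 2.85% and 2.33% in UHRF1-AID, against 2.49%, 2.85% and 2.06% with both tags. It was 1.895%, 2.08% and 1.695% in WT, and 1.62%, 1.47% and 2.84% in DNMT1-AID, where replicate 3 was as high as the tagged lines. Without the 3 length-trend libraries the median was 0.09, and without DNMT1-AID replicate 3 it was 0.75.

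Genes near the edited locus were looked at as a group. Of 90 genes within 1 Mb of UHRF1 on chromosome 19, 46 were tested, and 13 were higher (28.3%, against 9.06% of all genes) and 3 lower, with a median of 0.30. On the whole of chromosome 19, which is gene-dense and GC-rich, 154 of 1008 genes were higher (15.3%) and 43 lower (4.27%), with a median of 0.11. Without the 3 length-trend libraries the medians were 0.02 near UHRF1 and 0.02 on chromosome 19, and with offsets for length and GC content 0.08 and 0.01. With those offsets 26.1% of the genes near UHRF1 and 10.7% of those on chromosome 19 were higher, against 7.89% of all genes, and without the 3 libraries 6.52% and 4.76%, against 4.04%. The higher neighbours included VMAC (0.66), HSD11B1L (0.49), SEMA6B (0.47) and HDGFL2 (0.38), while PLIN3 (-0.20) and MYDGF (-0.19) were lower.

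At day 4, UHRF1-AID/DNMT1-AID and DNMT1-AID could be compared again in other libraries, now under auxin, so that the tag and the loss of UHRF1 cannot be told apart there. EdgeR called 974 of 14246 genes (6.84%), 818 higher and 156 lower. ACSL5 was at 152 ± 28.1 CPM in DNMT1-AID against 44.3 ± 6.52 CPM with both tags (SD, n = 3), and it differed by -1.80 with an adjusted p of 6.68e-06, beside -1.96 at day 0. MBNL3 differed by -2.06 (adjusted p 0.00263, -2.47 at day 0), and AREG by -1.38 (adjusted p 5.07e-06, -1.05 at day 0). EREG differed by -2.06 with an adjusted p of 6.54e-11, beside -0.82 at day 0. AXIN2 was higher, by 1.62 (adjusted p 1.69e-06, 1.82 at day 0) and BMP4 by 1.06 (adjusted p 2.35e-06, 1.203 at day 0). Of the 20 leading genes 19 were tested at day 4, and 15 lay on the same side as at day 0 in these lines, 12 of them with an adjusted p under 0.05, while 4 lay on the other side, 0 of them with an adjusted p under 0.05. They were chosen on day 0 values of the same lines. Over the 13424 genes tested at both times 51.0% lay on the same side, 9.94% lay there with an adjusted p under 0.05 and 7.53% on the other side with such a p, and 20.5% of the genes tested at day 4 had such a p in either direction. CD55 differed by 0.60 at day 4 (adjusted p 0.131) against -0.59 at day 0, MSLN by -0.02 (adjusted p 0.929) against 0.81, and CA12 by -0.73 (adjusted p 0.244) against 0.69. Outside the leading genes, HBEGF was higher at day 4, by 0.50 (adjusted p 0.0166), against -0.80 at day 0, and BEX4 by 1.80 (adjusted p 3.49e-05) against -2.82. The UHRF1 transcript differed by 0.30 at day 4 (adjusted p 0.549) against 1.13 at day 0.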

How the data were processed

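The counts are those the authors deposited, 1 table per library with 58735 Ensembl genes. The labels give polyadenylated RNA as the molecule. By the study's methods, libraries were made with NEBNext Ultra and sequenced in pairs on a NovaSeq, and reads were trimmed with Trimmomatic, aligned to hg38 with STAR and counted with featureCounts. The strand setting is not given, so values of overlapping genes are uncertain. The 92 spike-in entries were left out, and 58207 genes had a symbol.

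Raw counts were scaled by TMM, filtered by filterByExpr over the 4 lines and fitted with the robust quasi-likelihood test of edgeR 4.0.16 (R 4.3.3), with UHRF1 and DNMT1 tag status as terms and Benjamini-Hochberg adjustment over all genes tested. A call needed an absolute log2 difference over 1 besides an adjusted p under 0.05. DESeq2 1.42.0 and limma 3.58.1 were alternatives. The steps were tested on simulated data. GC content came from GENCODE 44.

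Named genes were the tagged genes, called genes, and genes that an earlier text on these data named. Since none was called, the 10 lower and 10 higher genes of smallest p among those with a symbol were chosen after their values were seen. So were further genes from the lists or with DESeq2 calls. Of these, 1 higher gene of smallest p is not reported here. Gene lists were hand-written, except the S and G2/M phase lists from Seurat 5.3.0. The members and lists were chosen with earlier results of these data known. Each p measures spread between these libraries and treats all 12 as independent. By the study's account those of the tagged lines are clones, which in the double line may share a founder, while WT is the parent line. The p therefore does not measure spread over independent clones alone. No library duplicated another of its line, since chi-square divided by its degrees of freedom was 3.71 to 64.3 over the 12 within-line pairs.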

Additional observations from a re-analysis of the deposited data

Results flagged for a closer look

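In 44 groups of 6 libraries (22 genes, with and without the tag), the gap between the highest or lowest library and its neighbour was divided by the range of the group, and 3 groups exceeded the critical value of 0.625. Chance gives about 1 in 20 groups.

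PLK2 was at 67.0 CPM in DNMT1-AID replicate 3, while the other untagged libraries were between 34.6 and 44.6 CPM, a gap of 0.692 of the range. AXIN2 was at 4.99 CPM in the same library and between 1.67 and 2.84 CPM in the other untagged ones (0.648). ACSL5 was at 80.5 CPM in UHRF1-AID replicate 2 and between 31.6 and 49.4 CPM in the other tagged libraries (0.636). In all 3 cases the library lay toward the other tag group, and why was not tested.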

How the results depend on the processing

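With all 12 libraries edgeR called 0 higher and 0 lower genes (2747 at an unadjusted p under 0.05). The numbers of higher and lower genes were 5 and 10 with no filter on low counts, 25 and 20 with DESeq2, 13 and 16 with all 24 libraries, and 1 and 3 for UHRF1-AID/DNMT1-AID against DNMT1-AID alone. With 0 higher genes, 3 were lower with RLE scaling, 4 with limma-voom with quality weights, 4 with length offsets and 3 without the 3 length-trend libraries. With the replicate number as a block 1 was lower, although replicate numbers did not pair between lines (18 pairs, r from -0.68 to 0.09). Of the alternatives chosen after seeing the data, length and GC offsets gave 0 and 3, and DESeq2 without DNMT1-AID replicate 3 gave 146 and 34. Leaving out 1 library gave 0 to 23 higher and 0 to 20 lower genes, and for the difference between backgrounds 0 to 3. The cause was not tested.

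The UHRF1 transcript was higher in all settings, between 0.77 and 1.39. It was 1.16 with DESeq2 and 1.38 with DESeq2 without DNMT1-AID replicate 3, both past an adjusted p of 0.05, and between 1.06 and 1.39 with 1 library left out.

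DMRT1, at very low counts, turned from 0.00 to -0.0022 with RLE scaling, -0.11 with limma-voom, -0.36 with no covariate, -0.076 with the replicate block, -0.14 without the 3 length-trend libraries and -1.01 in UHRF1-AID against WT alone, and lay between -0.32 and 0.46 with 1 library left out, at 0.81 with DESeq2 and at 2.06 with all 24 libraries. DNMT1 was -0.049 without the 3 length-trend libraries, and SEMA3A was -0.22 in UHRF1-AID against WT alone. The cause was not tested.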

Other observations

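A few genes outside the descriptions above also differed with the tag, and edgeR called none of them. HERC5, an interferon-induced ubiquitin ligase, was between 16.1 and 18.7 with a median of 17.4 CPM with the tag and between 11.6 and 15.3 with a median of 12.8 without, with no overlap, a log2 difference of 0.41 (standard error 0.09) and an adjusted p of 0.135 by edgeR. IFITM1, an antiviral membrane protein, was between 2.04 and 8.39 with a median of 4.08 CPM with the tag and between 1.72 and 2.88 with a median of 2.38 without, and its higher values were those of UHRF1-AID/DNMT1-AID (7.48, 4.71 and 8.39 CPM). FGF9, a growth factor, was between 3.202 and 12.3 with a median of 5.81 CPM with the tag and between 1.14 and 3.74 with a median of 2.88 without, a log2 difference of 1.21 (standard error 0.33) with an adjusted p of 0.168, and an unadjusted p of 0.0788 without the 3 length-trend libraries. PKIB, an inhibitor of protein kinase A, was between 11.1 and 30.8 with a median of 18.9 CPM with the tag and between 20.0 and 70.3 with a median of 59.6 without, a log2 difference of -1.36 (standard error 0.29) with an adjusted p of 0.138 by edgeR and 1.06e-04 by DESeq2.

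Of other genes that an earlier text on these data named at day 0, TWIST1, an EMT factor, differed by 0.57 (standard error 0.19), SULT1A1, a sulfotransferase, by 0.31 (standard error 0.20) and NXT2, an RNA export factor, by -0.34 (standard error 0.14), with adjusted p of 0.187, 0.374 and 0.234. Without the 3 length-trend libraries they were at 0.41, 0.15 and -0.15. BEX4 was between 0.200 and 1.85 with a median of 0.238 CPM with the tag and between 1.40 and 3.10 with a median of 2.41 without, a log2 difference of -2.22 (standard error 0.43) with an adjusted p of 0.0927.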
